A study of Mus musculus with 6 samples.

Results

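The cytosolic ribosomal proteins were examined in whole tibialis anterior (TA) muscle of mice after local knockdown of Yap1, the transcriptional co-activator held in check by the Hippo pathway. Members were the rows of the count table with a symbol of the form Rpl or Rps followed by a number, together with Rplp0 to Rplp2 and Rpsa. The Rps6k kinases and the symbols with -ps, which are mostly pseudogenes, were dropped. The rule took 74 of the 13226 genes in the table. Of these, 38 were proteins of the large (60S) subunit, 24 were proteins of the small (40S) subunit and 3 were the stalk proteins. Another 8 were paralogs or retrocopies of a ribosomal protein gene, which was not in every case a member itself. The remaining gene, Rps19bp1, codes for a protein that binds Rps19 and is no ribosomal protein, although its symbol matches the rule. The rule would take a further 14 protein-coding genes from the GENCODE M21 annotation, among them Rps6, Rpl19 and Rps16. These had no row among the 13226 genes, so they were not analysed and the family sums leave them out.

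Male C57BL/6 mice aged 8 weeks received an AAV6 vector by intramuscular injection in the TA. One TA was given AAV6:Yap-shRNA and the TA of the other leg was given a control vector, which the vector label calls AAV6:LacZ-shRNA and the sample titles an empty vector. Muscles were taken after 7 days, with 3 control and 3 Yap-shRNA muscles from 3 mice, and poly(A) RNA of the whole muscle was sequenced. The labels give the plasmid backbones a CMV promoter, one that is not restricted to muscle fibres, and a whole muscle also holds vessels, nerve, connective tissue and immune cells.

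A cytosolic ribosome holds one copy of nearly every one of these proteins, around the ribosomal RNA, and their genes are expressed in all nucleated cells. Many of their mRNAs begin with a cytosine followed by a run of pyrimidines, the 5′ terminal oligopyrimidine (TOP) element, through which mTORC1 and Larp1 control their translation without a need for a change in mRNA level. In muscle, ribosome number is one limit on protein synthesis and growth. Striated muscle also expresses Rpl3l, a paralog that takes the place of Rpl3 in the large subunit.

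The start of the mRNA is shown first, because the TOP element is the sequence that members of this family are known to share. A RefSeq start site (GRCm38.p6) was found for 56 of the 74 members. With a TOP start defined as a C at the first base followed by at least 4 pyrimidines, read on the transcript strand, 9 of the 56 nearest starts (16.1%) had one, against 2.51% of all 32851 RefSeq starts in the same table. Each window below holds the 10 bases before the start and the 20 bases from it, 5′ to 3′ on the transcript strand, with the unbroken pyrimidine run that begins with C at the annotated start in capitals.
Rps18, chr17:33955646-33955675, minus strand: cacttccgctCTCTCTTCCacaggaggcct
Rpl15, chr14:18270967-18270996, minus strand: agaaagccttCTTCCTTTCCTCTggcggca
Rpl28, chr7:4792955-4792984, plus strand: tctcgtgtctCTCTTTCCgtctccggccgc
Rplp2, chr7:141447641-141447670, plus strand: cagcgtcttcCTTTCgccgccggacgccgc
Rps3a1, chr3:86142649-86142678, minus strand: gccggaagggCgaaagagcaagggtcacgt
Rpl5, chr5:107900518-107900547, plus strand: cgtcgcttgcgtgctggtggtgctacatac
Rpl3l, chr17:24727816-24727845, plus strand: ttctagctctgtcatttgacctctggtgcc
The first 4 had a TOP start by this definition, and Rps3a1, Rpl5 and Rpl3l did not. In the windows of Rps18, Rpl15, Rpl28 and Rplp2 pyrimidines also stood just upstream of the annotated start, so that the count depends on where RefSeq places the first base.

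The paralog pair is shown next, because the striated muscle paralog and its parent stood far apart in level. Rpl3 (GRCm38 chr15:80077791-80091868, minus strand) and Rpl3l (chr17:24727820-24736143, plus strand) have coding sequences of 1212 and 1224 bases, identical at 74.4% of 1209 aligned bases. The first 60 coding bases of each are given below, with the 13 differing bases in capitals.
Rpl3: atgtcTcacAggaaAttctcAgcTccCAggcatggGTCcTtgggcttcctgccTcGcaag
Rpl3l: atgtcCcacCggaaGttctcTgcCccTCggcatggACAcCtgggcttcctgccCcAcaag

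The targeted gene was checked in each library. Yap1 had 915, 781 and 833 counts in the control muscles and 381, 311 and 495 in the Yap-shRNA muscles, with every Yap-shRNA muscle below every control. As CPM, the counts scaled to library size after TMM normalisation, this was 68.3 ± 2.96 against 31.8 ± 7.80 (SD, n = 3 per group), a log2 fold change of -1.10 ± 0.16 (SE). It was not called by edgeR's quasi-likelihood test (Benjamini-Hochberg adjusted p = 0.436 over all genes), and was called by DESeq2 (adjusted p = 5.85e-07) and by edgeR's likelihood ratio test (adjusted p = 2.22e-06). Libraries held 11987167 to 12710393 counts. Defining muscle fibre markers took 17.1 to 19.2% of the counts of each library. The summed level of 11 liver genes was 541 CPM in control muscle 3 and 3.97 to 62.7 CPM in the others, and 7 tendon genes summed to 690 CPM in control muscle 1 and 568 CPM in Yap-shRNA muscle 3 against 131 to 183 CPM elsewhere. The part of these in the results for ribosomal proteins was not tested. The median log2 fold change of the members was 0.013 without control muscle 3, -0.026 without control muscle 1 and -0.010 without Yap-shRNA muscle 3.

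None of the 74 members passed the test between Yap-shRNA and control muscles, and the family as a whole had nearly the same level in both groups. With edgeR's quasi-likelihood test, adjusted p was 1 for every member. The same test called 0 of 13226 genes (0%), with unadjusted p under 0.05 for 117 genes (0.885%) that were higher and 115 genes (0.869%) that were lower. DESeq2 called 5 genes (0.0378%) and the likelihood ratio test also 5 (0.0378%), none of them a member. The median log2 fold change of the members was 0.02, with 45 of 74 above 0 (60.8%), beside a median of -0.003 over all genes, of which 48.9% were above 0. The change was smaller than 0.25 on the log2 scale in 61 members (82.4%), beside 85.0% of all genes.

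The summed level of the 74 members gave the same picture. It was 3401, 4075 and 3726 CPM in the control muscles and 3871, 3539 and 3838 CPM in the Yap-shRNA muscles. The control muscles thus held both the lowest and the highest value, and all 3 Yap-shRNA muscles lay between them. As a share of all counts the members took 0.371% ± 0.0211 in control and 0.377% ± 0.00945 in Yap-shRNA muscle (SD, n = 3 each). In a whole muscle, fewer cells of a type and less RNA per cell cannot be told apart. The p-values of the main test set the group difference against the spread between muscles of a group. That spread does not separate differences between mice from differences between legs.

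Precision depended on the counts behind each gene. The 95% confidence interval of the log2 fold change lay inside -0.5 to 0.5 for 47 of the 74 members. This held for 45 of the 47 members with at least 100 counts per library on average and for 2 of the 27 with fewer. Among the first 47, log2 fold changes ran from -0.28 for Rps3a1 to 0.27 for Rplp2.

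**Figure D1:**
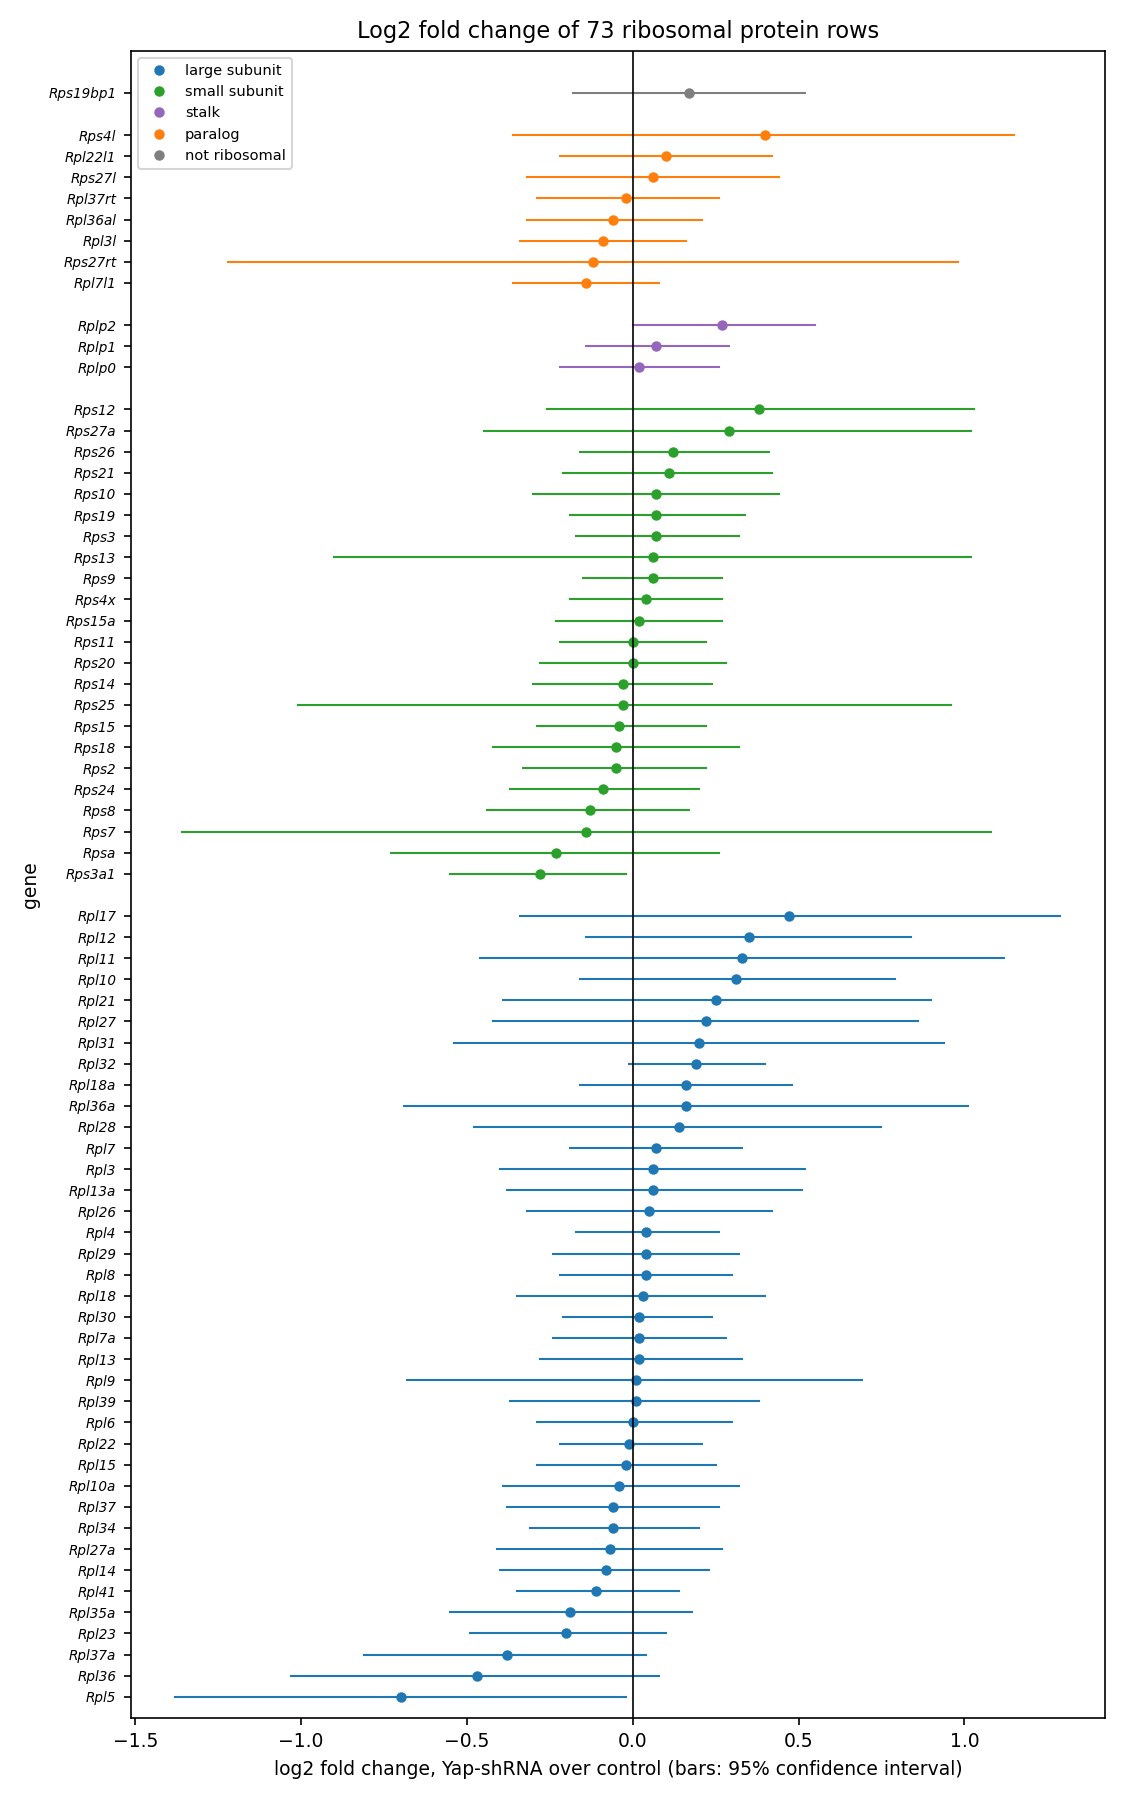
Log2 fold change of 73 of the members (x axis, Yap-shRNA over control) with its 95% confidence interval (bars), 1 row per gene and 1 colour per class. Most points lie within 0.25 of 0, and the intervals of Rps3a1 and Rpl5 alone leave out 0 before adjustment over the 13226 genes.

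The large subunit carries the peptidyl transferase centre, where amino acids are joined. Its 38 measured proteins had a median log2 fold change of 0.03, with 25 above 0 and 13 not. Rpl4 and Rpl8, core proteins bound to the large ribosomal RNA, had the most reads of this class. Rpl4 had 381.1, 436.4 and 388.8 CPM in control and 428.1, 394.5 and 419.8 CPM in Yap-shRNA muscle, a log2 fold change of 0.04 with a 95% interval from -0.17 to 0.26. Rpl8 had 253.2, 323.7 and 268.9 CPM against 291.9, 269.7 and 308.0 CPM, a log2 fold change of 0.04 ± 0.11 (SE). The groups overlapped in both genes.

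Rpl5 and Rpl11, which with 5S ribosomal RNA form the particle that can bind Mdm2 and so spare p53, stood low in the order of levels. Rpl5 had 28, 26 and 25 counts in control and 16, 12 and 21 counts in Yap-shRNA muscle. Every Yap-shRNA muscle lay below every control, at 61.5% of the control mean. The log2 fold change was -0.70 ± 0.30 (SE), with an unadjusted p under 0.05 and adjusted p = 1 in edgeR's quasi-likelihood test, and it ranged from -0.91 to -0.50 when each muscle was left out in turn. Rpl11 had 17, 13 and 9 counts against 12, 21 and 17, with overlapping groups and a log2 fold change of 0.33 ± 0.35, which ran from 0.14 without control muscle 3 to 0.54 without control muscle 1. The difference between Rpl5 and Rpl11 was not tested. Counts of this size leave a wide interval, from -1.38 to -0.02 for Rpl5 and from -0.46 to 1.12 for Rpl11. Of the 50-base windows of the Rpl5 transcript, 93.8% also occur in another annotated gene, so its reads are uncertain.

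The other large subunit members at the ends of the order also had few reads. Rpl36 had 32, 33 and 42 counts in control and 28, 28 and 22 in Yap-shRNA muscle, a log2 fold change of -0.47 ± 0.25. Rpl37a had 65, 91 and 74 counts against 58, 61 and 60, a log2 fold change of -0.38 ± 0.19, which became -0.22 without control muscle 2. In both, every Yap-shRNA muscle lay below every control. At the other end, Rpl17 had 11, 10 and 6 counts against 13, 12 and 13, a log2 fold change of 0.47 ± 0.36, which became 0.26 without control muscle 3. Rpl12, a protein at the base of the stalk, had 42, 31 and 28 counts against 46, 44 and 40, a log2 fold change of 0.35 ± 0.22. Rpl10, which completes the subunit late in its assembly, had 32, 26 and 30 counts against 33, 40 and 38, a log2 fold change of 0.31 ± 0.21. The groups of Rpl17 and Rpl10 did not overlap, those of Rpl12 did, and no value of unadjusted p in these 5 genes was under 0.05.

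Rpl32 combined non-overlapping groups with 355 to 426 counts per library. It had 28.1, 29.7 and 30.4 CPM in control and 34.6, 32.2 and 34.0 CPM in Yap-shRNA muscle, or 29.4 ± 1.20 against 33.6 ± 1.25 (SD, n = 3). The log2 fold change was 0.19 ± 0.09 (SE), with an unadjusted p above 0.05 and adjusted p = 1 in edgeR's quasi-likelihood test. It was picked out after its values were seen. Rpl13a, which also leaves the ribosome to restrain translation of inflammatory mRNAs, had overlapping groups at 5.76 ± 1.24 and 6.02 ± 0.559 CPM. Rpl41, the shortest protein of the ribosome, had 40.3 ± 3.48 and 37.4 ± 3.48 CPM, a log2 fold change of -0.11 ± 0.11 that was -0.03 without control muscle 2 or without Yap-shRNA muscle 2.

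The small subunit decodes the mRNA. Its 24 measured proteins had a median log2 fold change of 0.01, with 13 above 0 and 11 not. Rps19, the protein most often affected in Diamond-Blackfan anaemia, had 17.9 ± 2.04 and 18.8 ± 0.164 CPM. Rps4x, the X-linked gene for a small subunit protein, had 32.5 ± 1.79 and 33.4 ± 2.94 CPM. The groups overlapped in both genes, with log2 fold changes of 0.07 ± 0.12 and 0.04 ± 0.10. That of Rps19 was 0.16 without control muscle 2 and 0.004 without control muscle 3.

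Rps3a1, a protein near the mRNA exit side of the subunit, was the other member with an unadjusted p under 0.05. It had 22.4, 26.3 and 21.1 CPM in control and 19.6, 18.2 and 19.5 CPM in Yap-shRNA muscle, from 234 to 315 counts per library. Every Yap-shRNA muscle lay below every control, at 82.1% of the control mean. The log2 fold change was -0.28 ± 0.12 (SE), with an unadjusted p under 0.05 and adjusted p = 1 in edgeR's quasi-likelihood test. Leaving out each muscle in turn gave -0.35 to -0.19, the smallest without control muscle 2. Rps3a1 shares 71.0% of its 50-base windows with other annotated genes.

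Several small subunit members rested on few reads. Rps12 had 14, 14 and 12 counts in control and 17, 19 and 17 in Yap-shRNA muscle, a log2 fold change of 0.38 ± 0.29 with no overlap. Rps27a, which is made as a fusion with ubiquitin, had 17, 11 and 22 counts against 17, 24 and 21, a log2 fold change of 0.29 ± 0.33, which was 0.08 without control muscle 2 and 0.55 without control muscle 3. Rpsa, also known as the laminin receptor precursor, had 33, 43 and 42 counts against 30, 36 and 36, a log2 fold change of -0.23 ± 0.22, which was -0.37 without control muscle 1 and -0.14 without control muscle 2. The groups overlapped in Rps27a and Rpsa, and none of the 3 had an unadjusted p under 0.05. Rps13, with 7 to 18 counts per library, and Rps7, with 3 to 15, had log2 fold changes of 0.06 ± 0.43 and -0.14 ± 0.54, with 95% intervals from -0.90 to 1.02 and from -1.36 to 1.08.

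The stalk recruits elongation factors to the ribosome and consists of Rplp0, which anchors it, and the acidic proteins Rplp1 and Rplp2. All 3 genes had log2 fold changes above 0. Rplp0 had 247 ± 19.9 CPM in control and 250 ± 23.3 CPM in Yap-shRNA muscle, a log2 fold change of 0.02 ± 0.11, and Rplp1 had 189 ± 6.35 and 199 ± 14.6 CPM, a log2 fold change of 0.07 ± 0.09. Their groups overlapped. Rplp2 had 37.4, 30.8 and 41.8 CPM against 46.5, 41.9 and 44.4 CPM, so that the highest control and the lowest Yap-shRNA muscle nearly met. Its log2 fold change of 0.27 ± 0.12 had an unadjusted p just above 0.05 and adjusted p = 1 in edgeR's quasi-likelihood test, and it became 0.16 without control muscle 2.

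**Figure D2:**
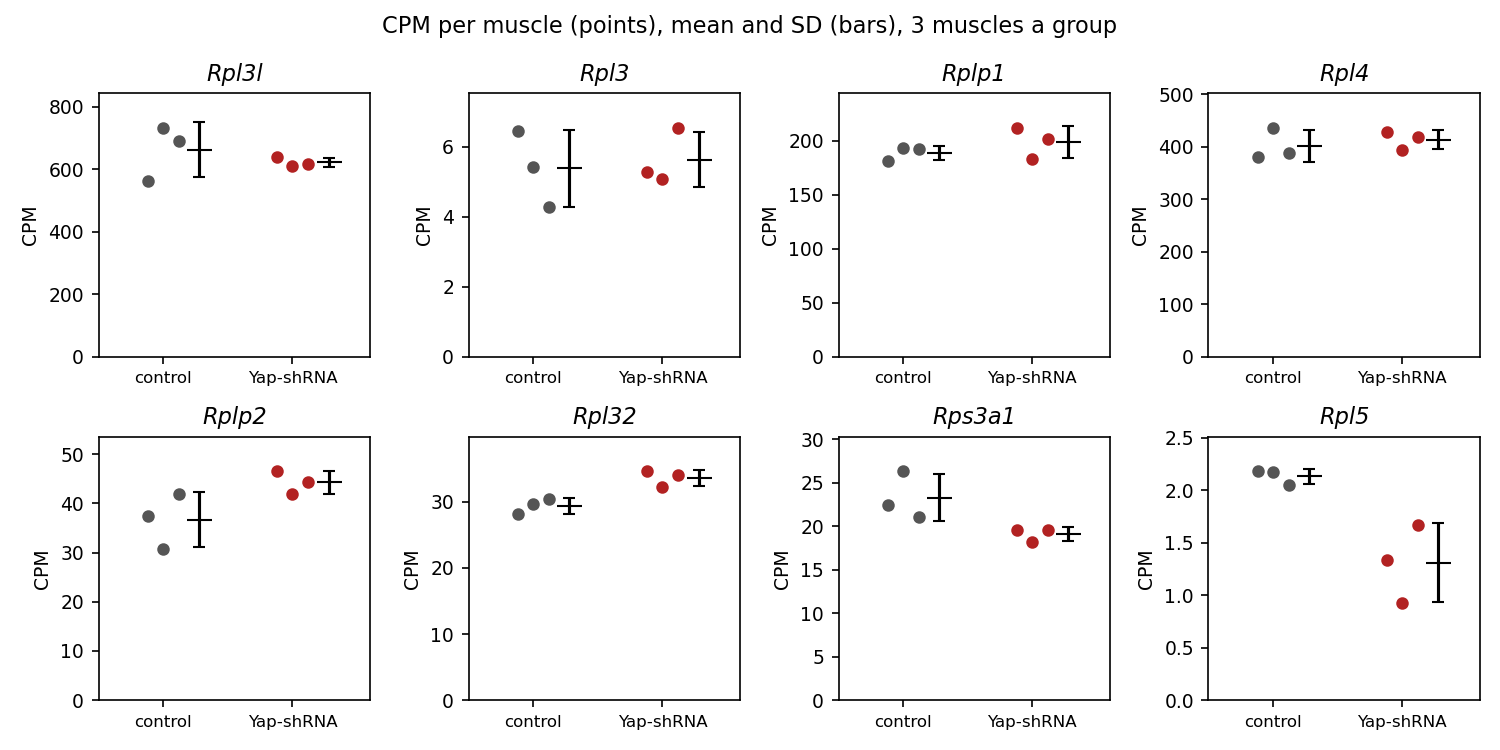
CPM after TMM normalisation (y axes, each from 0) of 8 members in each muscle (points), with the mean and SD of the 3 muscles per group (bars). The groups overlap for Rpl3l, Rpl3, Rplp1 and Rpl4, do not overlap for Rplp2, Rpl32, Rps3a1 and Rpl5, and differ most in proportion for Rpl5, which has the fewest reads.

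Across the family, non-overlapping groups were as many above as below. Every Yap-shRNA muscle was above every control in 6 members (8.11%): Rplp2, Rpl32, Rpl10, Rps12, Rpl17 and Rps19bp1. The same order was found in 2.56% of all genes. Every Yap-shRNA muscle was below every control in 6 members (8.11%): Rps3a1, Rpl23, Rpl35a, Rpl37a, Rpl36 and Rpl5. This order was found in 2.71% of all genes. Among the 47 members with at least 100 counts per library on average, 2 (4.26%) were above and 2 (4.26%) below. Over the 7955 genes with at least 100 counts these shares were 2.15% and 2.29%. Both directions were thus present in each subset. Of the 27 members with fewer reads, 4 (14.8%) were above and 4 (14.8%) below, which makes 8 of these 12 genes. The shares over all genes with so few reads were not taken. Rpl23 and Rpl35a, both of the large subunit, were also picked out after their values were seen. Rpl23 had 14.3 ± 1.40 and 12.4 ± 0.821 CPM, and Rpl35a had 7.25 ± 0.671 and 6.37 ± 0.661 CPM. Unadjusted p was under 0.05 in no member that was higher and in 2 that were lower, Rpl5 and Rps3a1.

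The 8 paralogs and retrocopies had a median log2 fold change of -0.04, from -0.14 for Rpl7l1 to 0.40 for Rps4l. Rpl3l alone took 17.1% of all counts on the members. It had 563.0, 732.1 and 691.4 CPM in control and 639.1, 610.0 and 616.4 CPM in Yap-shRNA muscle. All 3 Yap-shRNA muscles lay within the control range, and the log2 fold change was -0.09 with a 95% interval from -0.34 to 0.16. Rpl3 had only 6.46, 5.43 and 4.27 CPM against 5.29, 5.07 and 6.54 CPM.

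The ratio of Rpl3l to Rpl3 counts does not depend on the scaling of the libraries. It was 87.1, 135 and 162 in the control muscles and 121, 120 and 94.3 in the Yap-shRNA muscles, so that Rpl3l was far above Rpl3 in all 6. On the log2 scale it was 6.95 ± 0.46 and 6.80 ± 0.21 (SD, n = 3), a difference of -0.16. The exact permutation test, two-sided, gave p = 0.6, where the smallest p that 3 against 3 muscles allow is 0.1. The difference turned to 0.04 without control muscle 3. None of the 50-base windows of Rpl3l occurs in another gene, whereas 85.6% of those of Rpl3 do, in 26 other genes, so that the size of the ratio depends on how shared reads were counted.

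Rpl22 and Rpl22l1, whose proteins can stand in for each other in the large subunit, had a log2 ratio of paralog to parent counts of -3.45 ± 0.09 in control and -3.34 ± 0.04 in Yap-shRNA muscle. Rpl7l1, a relative of Rpl7 that acts in ribosome assembly, and Rpl7 had nearly equal counts, with a log2 ratio of 0.07 ± 0.07 and -0.14 ± 0.15. Rpl36al and Rpl36a had a log2 ratio of 3.96 ± 0.26 and 3.78 ± 0.50. Rpl36a had only 9 to 18 counts per library. Of its 50-base windows 85.5% occur in another gene, as do 63.3% of those of Rpl36al. This share was 65.6% for Rpl22l1 and 24.5% for Rpl22. The sizes of these ratios thus also depend on how shared reads were counted. Over the 4 pairs compared, the exact permutation test gave p = 0.2 to 0.7, and 0.4 to 0.7 after Benjamini-Hochberg adjustment. Rps27l, a paralog that is also a target of p53, had 34.0 ± 8.51 and 35.5 ± 3.06 CPM. Rpl39, whose paralog Rpl39l was not analysed here, had 12.8 ± 1.34 and 12.8 ± 2.35 CPM. Rps4l, annotated as a transcribed processed pseudogene, had 38, 31 and 23 counts against 42, 24 and 56, a log2 fold change of 0.40 ± 0.34 that was 0.11 without Yap-shRNA muscle 3. Rps27rt, a retrocopy, had 6 to 18 counts per library and a log2 fold change of -0.12 ± 0.49. Rps19bp1 had 81, 96 and 96 counts against 102, 105 and 104, a log2 fold change of 0.17 ± 0.16 that was 0.06 without control muscle 1.

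Although ribosomes hold their proteins in nearly equal numbers, the counted mRNA levels spanned a wide range. Per kb of transcript the mean level over the 6 muscles ran from 0.843 CPM per kb for Rpl5 to 467 CPM per kb for Rpl3l. Among the highest were Rplp1 at 389, Rpl8 at 336 and Rpl4 at 265 CPM per kb. The range over the muscles of Rplp1 (364 to 425) overlapped with those of Rpl3l (409 to 532) and Rpl8 (298 to 380), while Rpl8 and Rpl4 (248 to 284) did not overlap with each other. At the low end Rps13, Rpl11, Rpl17, Rps7 and Rpl5 had 1.45, 1.43, 1.13, 1.07 and 0.843 CPM per kb, with overlapping ranges. This order depends on the transcript taken for the length, which was 2045 bases for Rpl5. By counts Rpl5, with a mean of 21.3 per library, stood above Rpl11 (14.8), Rpl17 (10.8), Rps7 (10.8) and Rps13 (10.7). The 5 members with the most counts held 50.9% of the reads of the family.

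Levels moved with how much of a transcript is found elsewhere in the genome's annotated genes. At least one 50-base window was shared with another gene in 71 of the 74 members, and Rpl3l and Rps19bp1 were among those that shared none. The 25 members with under 40% of their windows shared had a median of 56.9 CPM per kb. The 21 members between 40 and 70% had 14.7 CPM per kb, and the 28 members with at least 70% had 9.48 CPM per kb. Across the 74 members, which share libraries and are not independent replicates, log10 CPM per kb and the shared percentage had a Pearson correlation of -0.49 and a Spearman correlation of -0.46. The relation had exceptions, since Rplp1 stood in the upper end of the order with 60% shared and Rps4l had 3.65 CPM per kb with 18.0% shared. Rps19bp1, with none shared, had 9.37 CPM per kb. How the authors treated reads that match several genes is not given in the sources used here, and the part of such reads in these levels was not tested.

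**Figure D3:**
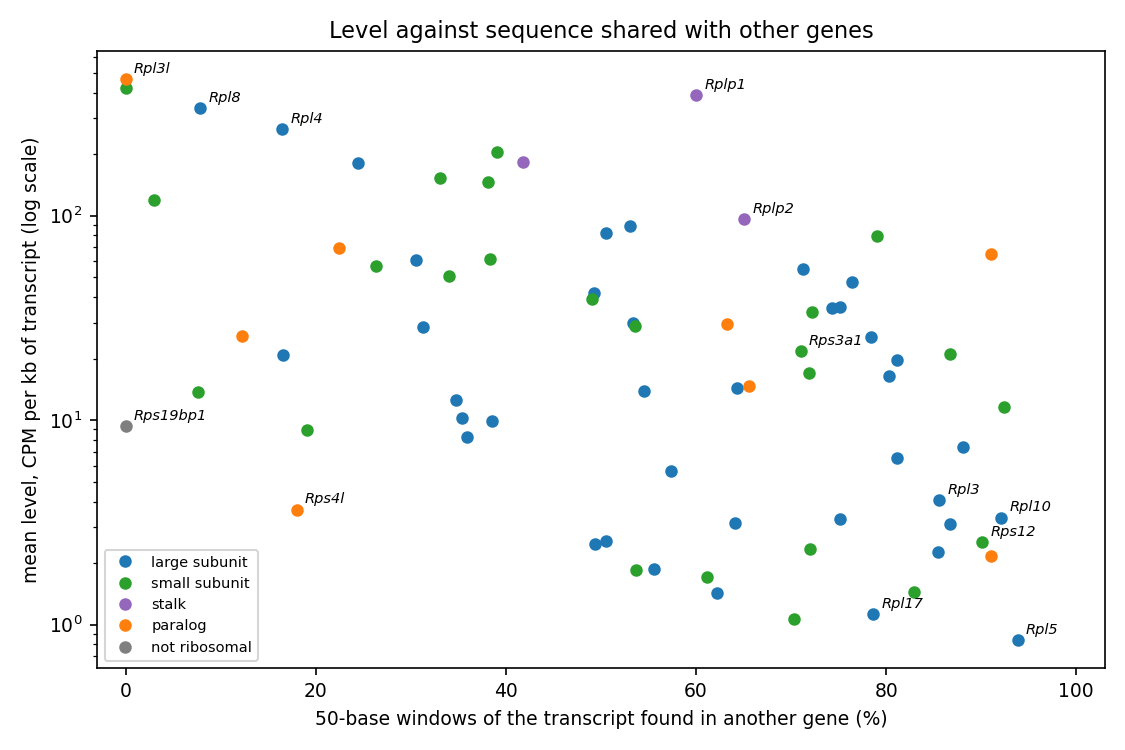
Mean level of each member over the 6 muscles (y axis, CPM per kb of transcript, log scale) against the percentage of its transcript's 50-base windows that occur in another annotated gene (x axis), with 1 colour per class. Levels run from 467 CPM per kb for Rpl3l, with no shared window, to 0.843 CPM per kb for Rpl5, with 93.8% shared. There are exceptions between them, such as Rps19bp1 at 9.37 CPM per kb with no shared window.

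The difference between groups showed no such relation. The median log2 fold change was 0.01, 0.06 and 0.02 in the members with few, intermediate and many shared windows, and the Pearson correlation with the shared percentage was -0.03 over 74 members. The 25 rows with -ps symbols, which were not members, summed to 267, 329 and 289 CPM in control and 306, 287 and 303 CPM in Yap-shRNA muscle and had a median log2 fold change of 0.05, with 0 called.

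Single muscles differed more than the groups did. Of the 47 members with at least 100 counts per library on average, 25 (53.2%) were highest in control muscle 2, and 21 (44.7%) were lowest in control muscle 1 and 17 (36.2%) in Yap-shRNA muscle 2. Over all genes, control muscle 2 was highest in 23.6%, control muscle 1 lowest in 22.3% and Yap-shRNA muscle 2 lowest in 13.5%. The median deviation of these members from their own mean, on the log2(CPM + 0.5) scale, was -0.105, 0.113 and -0.017 in the control muscles and 0.067, -0.080 and 0.048 in the Yap-shRNA muscles. The members thus moved together from muscle to muscle, with muscles of both groups on each side of the mean. The median over all genes stayed between -0.003 and 0.009, where the TMM scaling itself largely holds it.

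**Figure D4:**
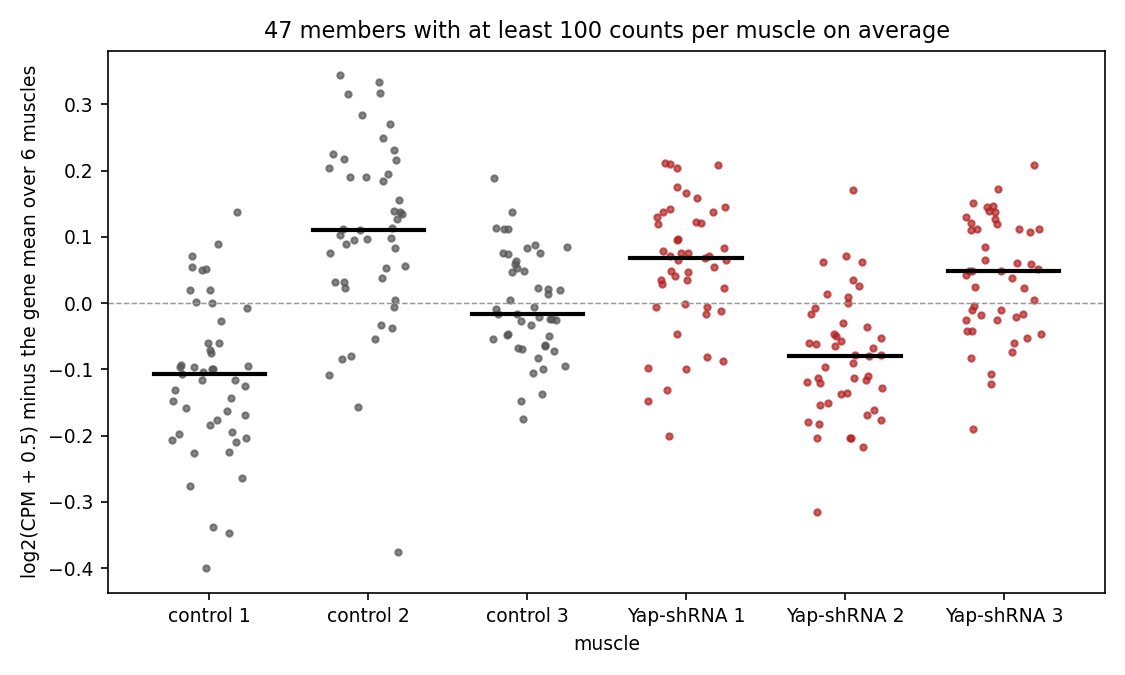
Log2(CPM + 0.5) minus the gene's mean over the 6 muscles (y axis) for 47 members in each muscle (x axis), 1 point per gene, with the median as a black line. The medians run from -0.105 in control muscle 1 to 0.113 in control muscle 2, and the Yap-shRNA medians lie between them.

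Other genes followed part of this order. The 79 mitochondrial ribosomal proteins, which build the separate ribosome of mitochondria, summed to 2765, 3834 and 3376 CPM in control and 3323, 3240 and 3077 CPM in Yap-shRNA muscle. The 1546 genes with a transcript under 1000 bases summed to 141927, 173114 and 163184 CPM against 158653, 147281 and 154309 CPM. Control muscle 1 was lowest and control muscle 2 highest in both sets, as in the cytosolic ribosomal proteins. The summed CPM of all 13226 genes had the same lowest and highest muscles, at 956275 and 1031659 CPM. As shares of all counts the extremes were also these muscles, at 0.356 and 0.395% for the cytosolic set. They were 0.289 and 0.372% for the mitochondrial set and 14.8 and 16.8% for the short transcripts. The parts of scaling and of transcript length in the spread between muscles were not tested. Within a group, the median coefficient of variation was 8.32% for these 47 members and 9.24% for the 7955 genes of at least 100 counts. The mitochondrial set had a median log2 fold change of -0.05, with 20 of 79 above 0 and 0 called.

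The genes that make and regulate ribosomes were read from lists chosen with earlier results of these data known, and edgeR's quasi-likelihood test called 0 genes in each. Rack1, a ribosomal component outside the naming rule and the scaffold on the small subunit, had 359 ± 25.3 and 384 ± 20.1 CPM, a log2 fold change of 0.10 ± 0.10. The 85 measured ribosome biogenesis factors had a median log2 fold change of 0.02, from -0.25 for Surf6, a nucleolar assembly factor, to 0.41 for Dimt1, an 18S ribosomal RNA methylase. The 15 measured genes of RNA polymerase I and its factors, which transcribe ribosomal RNA, had a median of 0.03, from -0.11 for Taf1b to 0.38 for Polr1e. Unadjusted p was under 0.05 in none of the genes of these 3 lists.

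The translation factors whose mRNAs also carry TOP elements had a median log2 fold change of -0.01 over 18 genes, from -0.12 for Eef1d to 0.19 for Tpt1. The regulators of TOP translation and of ribosome synthesis, mTORC1, Larp1 and Myc among them, had a median of 0.01 over 27 genes, from -0.20 for Deptor, an mTOR inhibitor, to 0.48 for Mycn. Unadjusted p was under 0.05 in none of these. The 11 measured snoRNA host genes had a median of -0.10 and 1 gene with an unadjusted p under 0.05. This was Snhg20, with 62, 79 and 82 counts in control and 51, 53 and 45 in Yap-shRNA muscle, a log2 fold change of -0.60 ± 0.19, with adjusted p = 1 in edgeR's quasi-likelihood test.

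The 10 genes of the p53 axis, to which free Rpl5 and Rpl11 can signal through Mdm2, had a median log2 fold change of 0.10, with 9 above 0. Of these, Sesn1 was also among the regulators above. The summed level of the 10 genes overlapped between groups, at 1385, 1273 and 1419 CPM in control and 1509, 1300 and 1382 CPM in Yap-shRNA muscle. Cdkn1a, the p53 target that codes for the cell cycle inhibitor p21, had 452, 347 and 473 counts in control and 562, 564 and 801 in Yap-shRNA muscle. Every Yap-shRNA muscle lay above every control. The log2 fold change was 0.58 ± 0.16, with an unadjusted p under 0.05 and adjusted p = 1 in edgeR's quasi-likelihood test. It ran from 0.40 without Yap-shRNA muscle 3 to 0.69 without Yap-shRNA muscle 2.

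Markers of the cells a whole muscle can hold were read beside these values, in summed CPM from the lowest to the highest muscle of each group. All 12 macrophage markers had a row and summed to 107 to 260 CPM in control and 183 to 236 CPM in Yap-shRNA muscle. The 8 fibroblast markers summed to 1332 to 2638 against 1581 to 3124 CPM, and the 7 endothelial markers to 368 to 432 against 392 to 419 CPM. The 7 adipocyte markers summed to 381 to 429 against 374 to 419 CPM, the 5 Schwann cell markers to 87.2 to 149 against 108 to 134 CPM, and the 5 erythroid markers to 120 to 203 against 101 to 243 CPM. The 8 measured of 9 satellite cell and regenerating fibre markers summed to 56.6 to 82.6 against 49 to 95 CPM. Only Csf3r of 7 neutrophil markers had a row, at 0.410 to 1.40 against 0.718 to 1.09 CPM, and 0 of 8 T and B cell markers had one. The groups overlapped in each of these sums, while single markers leaned to one side. Of the fibroblast markers, 8 of 8 had log2 fold changes above 0 (median 0.21), and Dpt, Pi16 and Ly6a had an unadjusted p under 0.05. Of the macrophage markers, 11 of 12 were above 0 (median 0.29), and of the muscle fibre markers 11 of 12 were below 0 (median -0.08). The adipocyte sum was carried by Fabp4 and Plin4, and the other markers of that list stood apart in Yap-shRNA muscle 3. Adipoq was at 16.3 CPM there against 1.59 to 4.75 CPM elsewhere, and Cfd at 50.1 against 8.03 to 14.0 CPM, so that the list had a median log2 fold change of 1.02. Among the liver genes, Apoa1 was at 0 in control muscle 1 and Yap-shRNA muscle 3. Alb, the albumin gene, was at 238.7 CPM in control muscle 3 and at 0.319 to 25.2 CPM in the others. The part of cell composition in the members' values was not tested.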

How the data were processed

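Poly(A) RNA of 6 TA muscles was sequenced (3 control, 3 Yap-shRNA), and the authors deposited whole-number counts of reads for each gene. The submitters' processing notes name bcl2fastq 2.20.0.422 and GRCm38. The aligner, the counter, the strand setting and the read length are not given in the sources used here. No gene had fewer than 60 counts in all, a mean of 10 per library, so a filter had already been applied. All columns were used. Libraries of a group had a chi-square of 7.62 to 21.4 per degree of freedom between them, so none was a repeat. Libraries held 11987167 to 12710393 counts. Precision rested on the spread between muscles (biological coefficient of variation 15.7%) and, for genes with few reads, also on counting.

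All 13226 genes were fitted with edgeR 4.0.16 (TMM, quasi-likelihood, group as the only term, R 4.3.3), with Benjamini-Hochberg adjustment over all genes and a threshold of 0.05. The script was tested on simulated data. CPM are TMM-normalised. DESeq2 1.42.0, limma-voom 3.58.1, the likelihood ratio test, other scalings, a stricter filter, a replicate block and leaving out each muscle were alternatives. Members, lists and tests were chosen with earlier results of these data known. Named members were the stalk proteins, Rpsa, Rps27a, paralogs with their parents, Rpl5, Rpl11, Rps19, Rpl13a, Rpl41, Rps19bp1, the 5 highest and 5 lowest by fold change and by level, and each with unadjusted p under 0.05. From other lists, genes with unadjusted p under 0.05 were named, or else the ends of the order. Some genes that this rule would name are not reported here. All 74 members matched GENCODE M21 (GRCm38). Shared sequence was counted as exact windows of 50 bases of 1 transcript per gene that occur in transcripts of another gene. The length of the same transcript was used for the levels per kb. Start sites came from RefSeq on GRCm38.p6.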

Additional observations from a re-analysis of the deposited data

How the results depend on the processing

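No ribosomal protein gene was called under any of the settings run, which were DESeq2, limma-voom, the likelihood ratio test, no scaling factors, upper-quartile scaling, TMM without the members, at least 10 counts in every library, the replicate block, and each muscle left out. Over the whole table the count of called genes was 5 with DESeq2, 5 with the likelihood ratio test, and 0 to 1 with a muscle left out (1 without Yap-shRNA muscle 3), where the main test called 0. The median log2 fold change of the members was 0.021 and lay between 0.018 and 0.038 under the other settings and between -0.026 and 0.079 with a muscle left out. The difference in summed share (0.00577 percentage points) was -0.00182 to 0.0178 with a muscle left out, 0.00884 for the core proteins and 0.0135 without the 10 most abundant genes. Per the labels each of 3 mice gave a control and a treated muscle, but no label ties a number to a mouse. Deviations of same-numbered muscles correlated at -0.07, 0.2 and -0.32. These values cannot decide whether the numbers mark mice, since each deviation is taken from a mean of only 3 muscles. For want of a label, the numbers were not taken as pairs. The fit with the replicate number as a block called 0 genes, gave a member median of 0.019 and changed no call. The log2 ratio of Rpl3l to Rpl3 differed by -0.16, with the block too, and by -0.41 to 0.04 with a muscle left out.

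Among the named members, signs turned for Rpl39 (-0.01) and Rps13 (-0.04) and for Rps27rt (0.06) with limma-voom, for Rpl22 (0.01) with no scaling factors, and for Rpl39 (-0.0003) with the block. With a muscle left out, the ranges of named members that crossed 0 were -0.10 to 0.19 for Rpl13a, -0.05 to 0.06 for Rpl22, -0.08 to 0.22 for Rpl3, -0.03 to 0.43 for Rpl36a, -0.08 to 0.15 for Rpl39, -0.03 to 0.15 for Rpl8, -0.06 to 0.08 for Rplp0, -0.44 to 0.30 for Rps13, -0.10 to 0.26 for Rps27l, -0.39 to 0.57 for Rps27rt, -0.02 to 0.11 for Rps4x and -0.54 to 0.31 for Rps7. The cause was not tested. For the 27 members with under 100 counts per library on average, depth limits what could be seen.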
